A study of Mus musculus with 12 samples.

Results

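Liver zonation was followed through 10 marker genes chosen by name: 7 of pericentral hepatocytes (Glul, Cyp2e1, Cyp1a2, Oat, Axin2, Lect2 and Slc1a2) and 3 of periportal hepatocytes (Cyp2f2, Hal and Sds). Of these, 9 genes were represented by 11 probe sets among the 12393 genes with a probe set of their own, and all 9 passed the filter on low signals. Sds, serine dehydratase, is not analysed here. The livers came from female C57BL/6 mice, whose age is not given in the sources used here. All 12 mice received subcutaneous injections 2 times a week for 3 weeks. The testosterone groups received 0.9 mg of testosterone in 100 µl of sesame oil, and the vehicle groups the oil alone. Livers were taken at the end of the injections (3 vehicle and 3 testosterone mice) or after a withdrawal period (3 vehicle and 3 testosterone mice), which lasted 12 weeks by the sample labels and 3 weeks by the series' design text. RNA of each mouse was hybridised to 1 Affymetrix array, so each group held 3 mice and 3 arrays.

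Blood enters the liver lobule at the portal tract and leaves through the central vein, and hepatocytes along this path divide their work. Wnt ligands from endothelial cells around the central vein maintain the pericentral programme, which includes glutamine synthesis, glutamate uptake, and drug metabolism by cytochrome P450 enzymes. Periportal hepatocytes carry out urea synthesis, gluconeogenesis and much amino acid breakdown, among them the breakdown of histidine and serine. Several hepatic cytochrome P450 genes of the mouse are also known to differ between the sexes and to respond to androgen and to the pattern of growth hormone secretion. An array of whole liver measures the sum over all zones, so fewer cells of a type and less RNA per cell cannot be told apart, and the position of a transcript in the lobule is not seen.

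Array medians lay between 20.03 and 22.44 signal units, and correlations within groups between 0.979 and 0.989. All 6 hepatocyte markers with a probe set were above the array median on every array, and none of the 5 cholangiocyte markers passed the filter. Summed signals of 13 Kupffer cell and macrophage markers ranged from 4327 to 6792 in vehicle livers at the end, against 3206 to 3860 with testosterone, 2162 to 4000 in vehicle livers after withdrawal and 2569 to 2852 after testosterone withdrawal. Summed signals of 12 endothelial markers ranged from 1189 to 1453, 1027 to 1119, 997 to 1184 and 1041 to 1095 in the same order. For 11 stellate cell and matrix markers the ranges were 1578 to 1921, 1499 to 1666, 2041 to 2209 and 1740 to 1818. For 9 exocrine pancreas markers they were 228 to 251, 307 to 385, 122 to 216 and 334 to 1514. Of these, 1 was above the array median on every array, Cela1. Its means alone were 188, 311, 116 and 413 in the same order, within summed means of 243, 352, 159 and 903. The 3′/5′ signal ratio of the actin control probe sets, a sign of RNA quality, was 1.52 ± 0.108 (SD, n = 3) in vehicle livers and 2.11 ± 0.0769 in testosterone livers at the end, and 1.77 ± 0.154 and 1.62 ± 0.179 after withdrawal. At the end it ranged from 1.44 to 1.64 with vehicle and from 2.03 to 2.19 with testosterone, and after withdrawal it was at most 1.89. The ratio and the testosterone treatment at the end thus cannot be told apart. The part of these marker lists in the results was not tested; for the actin ratio, counts of calls from a fit with it as a covariate are given beside the main ones.

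The first comparison asked how zonation markers stood in livers exposed to testosterone for 3 weeks. At the end of treatment 3 of the 7 pericentral markers were lower with testosterone (Slc1a2, Lect2 and Oat), 1 was higher (Cyp1a2), and 3 were not called (Glul, Cyp2e1 and Axin2). Of the 2 periportal markers Hal was lower and Cyp2f2 was not called. Calls rest on limma's moderated test with an adjusted p below 0.05, using Benjamini-Hochberg adjustment over 7217 genes. In this comparison 17.4% of all genes tested were called, 9.42% higher and 8.01% lower. The groups did not overlap for 5 of the 9 markers, against 35.7% of all genes. The median log2 difference of the 9 markers was -0.46, against 0.04 over all genes. Beside them, 7 of 13 Kupffer cell markers and 2 of 10 tested endothelial markers were lower and none of either was higher.

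Slc1a2 encodes the glutamate transporter GLT-1, which takes up glutamate at the plasma membrane. Its signal in vehicle livers at the end was 138, 132 and 94.9 (mice 1 to 3), and with testosterone 59.7, 51.9 and 59.3. Every testosterone value lay below every vehicle value. The mean was 57.0 ± 4.36 (SD, n = 3) with testosterone and 122 ± 23.5 with vehicle. Slc1a2 was 2.11-fold lower, a log2 difference of -1.08 ± 0.16 (SE; 95% confidence interval -1.41 to -0.75; limma adjusted p = 0.000343).

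Lect2 encodes a protein secreted by hepatocytes that is known as a target of β-catenin. Its signal in vehicle livers at the end was 1296, 1373 and 1160, and with testosterone 761, 697 and 791. The groups were separated by more than the spread within either of them. The means were 1276 ± 108 and 749 ± 48.0 (SD, n = 3 each). Lect2 was 1.70-fold lower with testosterone, a log2 difference of -0.77 ± 0.08 (SE; limma adjusted p = 2.44e-05), the smallest adjusted p of the 9 markers in this comparison.

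Oat encodes ornithine aminotransferase, a mitochondrial enzyme that turns ornithine into glutamate semialdehyde and, in pericentral cells, feeds glutamine synthesis. Its signal at the end was 2362, 2616 and 2725 with vehicle, and 1669, 1773 and 2196 with testosterone. The highest testosterone value stayed below the lowest vehicle value. Oat was 1.37-fold lower, from 2568 ± 186 to 1879 ± 279 (SD, n = 3 each), a log2 difference of -0.46 ± 0.10 (SE; limma adjusted p = 0.00805).

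Hal, the periportal member that was called, encodes histidine ammonia-lyase, the enzyme of the first step of histidine breakdown. Its signal at the end was 1125, 775 and 1026 with vehicle, and 499, 658 and 691 with testosterone. Vehicle mouse 2 was the lowest of its group and still above all 3 testosterone mice. Hal was 1.58-fold lower, from 975 ± 180 to 616 ± 103 (SD, n = 3 each), a log2 difference of -0.66 ± 0.14 (SE; limma adjusted p = 0.00547).

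Slc1a2, Lect2, Oat and Hal each kept their call when any 1 of the 6 mice of this comparison was left out, with log2 differences from -1.25 to -0.98, -0.83 to -0.71, -0.58 to -0.38 and -0.82 to -0.51. With the actin 3′/5′ ratio as a covariate, 1.08% of all genes were called, and of the markers Lect2 alone (-0.81, limma adjusted p = 0.0358). Because the ratio was higher on every testosterone array of the end than on any other array, that fit cannot separate it from the treatment. Oat also missed the threshold without the filter on low signals (adjusted p = 0.0505) and with every probe set tested (adjusted p = 0.0507). With the actin covariate the log2 difference was -1.14 for Slc1a2 (adjusted p = 0.159), -0.52 for Oat (adjusted p = 0.373) and -0.39 for Hal (adjusted p = 0.645).

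The promoters of these 4 genes are shown because they are the members that were lower together at the end of testosterone treatment. Each line is the 250 bases before the RefSeq transcription start on GRCm38.p6, written 5′ to 3′ on the gene's strand in lower case, with matches in capitals. Capitals mark CTTTGA on either strand, a core of the sites bound by TCF/LEF factors, the DNA-binding partners of β-catenin. The windows are chr2:102706188-102706437 (plus strand) for Slc1a2, chr13:56548539-56548788 (minus strand) for Lect2, chr7:132576399-132576648 (minus strand) for Oat and chr10:93488518-93488767 (plus strand) for Hal.
Slc1a2: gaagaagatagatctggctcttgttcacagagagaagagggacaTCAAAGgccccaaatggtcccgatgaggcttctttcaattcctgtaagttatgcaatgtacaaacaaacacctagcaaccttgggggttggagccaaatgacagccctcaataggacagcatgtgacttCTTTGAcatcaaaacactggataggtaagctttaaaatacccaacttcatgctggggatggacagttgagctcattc
Lect2: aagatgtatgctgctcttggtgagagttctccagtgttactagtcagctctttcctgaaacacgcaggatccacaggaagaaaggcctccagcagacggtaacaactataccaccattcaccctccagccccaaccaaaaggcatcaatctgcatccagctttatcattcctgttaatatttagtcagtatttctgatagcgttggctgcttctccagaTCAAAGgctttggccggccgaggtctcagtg
Oat: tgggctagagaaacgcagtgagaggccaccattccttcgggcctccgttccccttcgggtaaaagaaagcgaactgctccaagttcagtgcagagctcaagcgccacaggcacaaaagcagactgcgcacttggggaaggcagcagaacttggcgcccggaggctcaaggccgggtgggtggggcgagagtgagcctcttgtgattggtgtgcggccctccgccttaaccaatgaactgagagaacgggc
Hal: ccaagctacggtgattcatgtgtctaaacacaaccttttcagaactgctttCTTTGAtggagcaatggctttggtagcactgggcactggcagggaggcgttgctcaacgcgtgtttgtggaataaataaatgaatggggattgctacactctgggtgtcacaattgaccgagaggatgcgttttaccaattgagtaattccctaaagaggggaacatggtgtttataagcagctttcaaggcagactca

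The motif stood 2 times in the Slc1a2 window and 1 time each in those of Lect2 and Hal, and these letters are not in the Oat window. Across the members it occurred in 5 of 9 windows (Slc1a2, Lect2, Hal, Cyp2e1 and Cyp1a2), against 13.8% of 32851 promoter windows of the same length. The bases G and C made up 44.8% to 48.8% of the windows with a match and 51.6% to 69.2% of the member windows without this motif. The part of base composition was not tested. Genes that were lower at the end (Slc1a2, Lect2, Hal), higher (Cyp1a2) and not called (Cyp2e1) were among those with a match. The nearest match to a start was that of Lect2, which ended 25 bases before the first base of the transcript. The half-site AGAACA of the androgen receptor, searched on both strands, occurred in 1 of the 9 windows, that of Axin2, against 16.1% of all windows. The STAT5 motif TTCNNNGAA occurred in 0 of 9, against 7.02%. No matches of these 3 motifs overlapped, and a match is a description of the letters.

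Cyp1a2, an enzyme of caffeine and arylamine metabolism, was the member that was higher. Its signal at the end was 1451, 1288 and 1816 with vehicle, and 2000, 1877 and 1949 with testosterone. The testosterone values lay close together above all vehicle values, with vehicle mouse 3 nearest to them. The means were 1518 ± 270 and 1942 ± 61.4 (SD, n = 3 each), a 1.29-fold difference (log2 0.37 ± 0.11 SE; limma adjusted p = 0.0299). The call was lost when vehicle mouse 1 (0.34) or 2 (0.26) or testosterone mouse 1 (0.35), 2 (0.39) or 3 (0.37) was left out, and with the actin ratio as a covariate (0.36, adjusted p = 0.591), no filter, every probe set tested, no variance trend or the compared groups alone.

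Axin2, a negative regulator of Wnt signalling whose transcript is itself induced by the pathway, was dim. Its brightest probe set gave 26.6, 14.6 and 11.1 with vehicle at the end, and 3.61, 13.7 and 10.3 with testosterone. The groups overlapped, and testosterone mouse 1 lay below the floor of 4.84 to which low signals were raised. The log2 difference was -0.88 ± 0.38 (SE; 95% confidence interval -1.69 to -0.08; limma adjusted p = 0.122). Axin2 was above the array median on 6 of 12 arrays, and its other probe set, at 0.576 to 9.19, on 0.

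Glul, glutamine synthetase, is the classical marker of the hepatocytes that border the central vein. Its signal at the end was 1434, 920 and 1266 with vehicle and 1274, 1131 and 876 with testosterone. The groups overlapped, with means of 1207 ± 262 and 1094 ± 202 (SD, n = 3 each), and the log2 difference was -0.13 ± 0.20 (SE; 95% confidence interval -0.56 to 0.29; limma adjusted p = 0.687). The second Glul probe set had a mean of 609 ± 130 with vehicle and 411 ± 107 with testosterone, a log2 difference of -0.58 ± 0.26 (SE; adjusted p = 0.24 in the fit of every probe set). A decrease of the size seen for Oat lies within the interval of the brighter Glul probe set.

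Cyp2e1, an ethanol- and acetaminophen-metabolising P450 that is typical of the pericentral zone, and Cyp2f2, a P450 typical of the periportal zone, were among the brightest signals. At the end Cyp2e1 was at 4256 ± 140 (SD, n = 3) with vehicle and 4415 ± 84.2 with testosterone, and its log2 difference of 0.05 ± 0.06 (SE) had a 95% confidence interval of -0.08 to 0.19 (limma adjusted p = 0.614). Cyp2f2 was at 3277 ± 210 and 3450 ± 217, with a log2 difference of 0.07 ± 0.09 (SE; 95% confidence interval -0.11 to 0.26; limma adjusted p = 0.59). Both intervals exclude a decrease of the size of that of Hal. The highest signal of any probe set on an array was between 5980 and 7384.

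**Figure D1:**
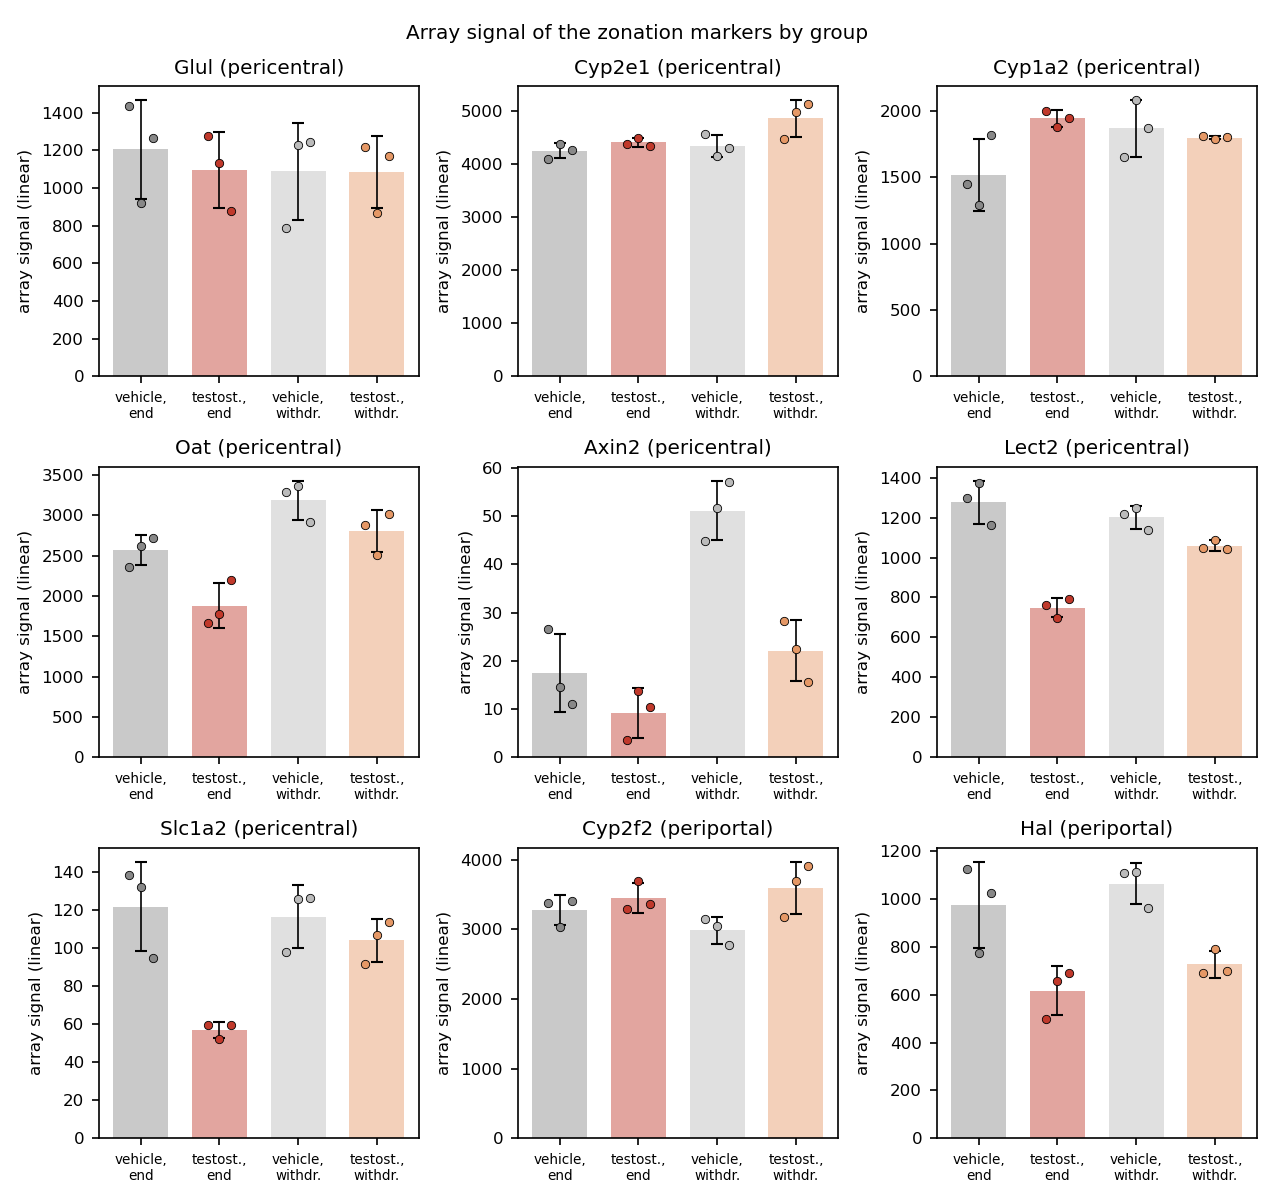
Signal of each of the 9 markers in every mouse (points; linear axis from 0, array signal units) by group, with bars at the group means and error bars of 1 SD (n = 3). Slc1a2, Lect2, Oat and Hal are lower in all 3 testosterone mice at the end than in all 3 vehicle mice, and Axin2 is highest in the vehicle mice after withdrawal.

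The comparison after withdrawal asked whether markers still differed once injections had stopped. None of the 7 pericentral markers was called, and of the 2 periportal markers Hal was lower in mice that had received testosterone. Of the pericentral markers Axin2, Lect2 and Cyp2e1 had an unadjusted p under 0.05 in limma's test. Over all genes 6.00% were called in this comparison, 2.74% higher and 3.26% lower. The groups did not overlap for 4 of the 9 markers (Axin2, Lect2, Cyp2f2 and Hal), against 25.9% of all genes.

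Hal signals after withdrawal were 1111, 1115 and 964 in vehicle mice and 691, 790 and 698 in testosterone mice. The groups did not overlap. Hal was 1.46-fold lower, from 1063 ± 85.9 to 727 ± 55.3 (SD, n = 3 each), a log2 difference of -0.55 ± 0.14 (SE; limma adjusted p = 0.0295). The call was lost without vehicle mouse 1 (-0.52) or 2 (-0.51) or without testosterone mouse 1 (-0.51) or 3 (-0.52), while the size of the difference moved little. It was also lost with no filter, every probe set tested, median centring or no variance trend in the fit.

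Axin2 signals after withdrawal were 44.8, 51.7 and 57.1 in vehicle mice and 28.3, 22.5 and 15.6 in testosterone mice. Every vehicle mouse lay above every testosterone mouse. The log2 difference was -1.24 ± 0.38 (SE; 95% confidence interval -2.05 to -0.43), which missed the threshold with a limma adjusted p of 0.067. It was called under 3 alternative settings: with log2(signal + 16) (-0.83, adjusted p = 0.0144), with the floor at the median of all signals (-1.10, adjusted p = 0.000295) and with the compared groups alone in the fit (-1.24, adjusted p = 0.00839).

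The pericentral markers that were lower at the end were nearer to the vehicle level after withdrawal. Slc1a2 was at 97.7, 126 and 126 in vehicle mice and 91.3, 107 and 114 in testosterone mice, with overlapping groups and a log2 difference of -0.16 ± 0.16 (SE; limma adjusted p = 0.589). Lect2 was at 1218, 1249 and 1136, and 1048, 1089 and 1042, a log2 difference of -0.18 ± 0.08 (SE; adjusted p = 0.233). Oat was at 3285, 3364 and 2912, and 2877, 2511 and 3015, a log2 difference of -0.19 ± 0.10 (SE; adjusted p = 0.326). Of these 3 genes, Lect2 alone had groups that did not overlap.

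The other markers were not called after withdrawal. Cyp1a2 was at 1868 ± 215 (SD, n = 3) in vehicle mice and 1798 ± 12.7 in testosterone mice, and Glul at 1089 ± 259 and 1086 ± 190. The 95% confidence intervals of their log2 differences were -0.28 to 0.18 and -0.41 to 0.44. Cyp2e1 was at 4350 ± 214 and 4868 ± 352 (log2 0.16 ± 0.06 SE; limma adjusted p = 0.165), and Cyp2f2 at 2986 ± 196 and 3591 ± 377 (log2 0.26 ± 0.09 SE; adjusted p = 0.0842). Without testosterone mouse 1 both P450 genes were called higher, Cyp2e1 at 0.22 (adjusted p = 0.0388) and Cyp2f2 at 0.35 (adjusted p = 0.0168).

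**Figure D2:**
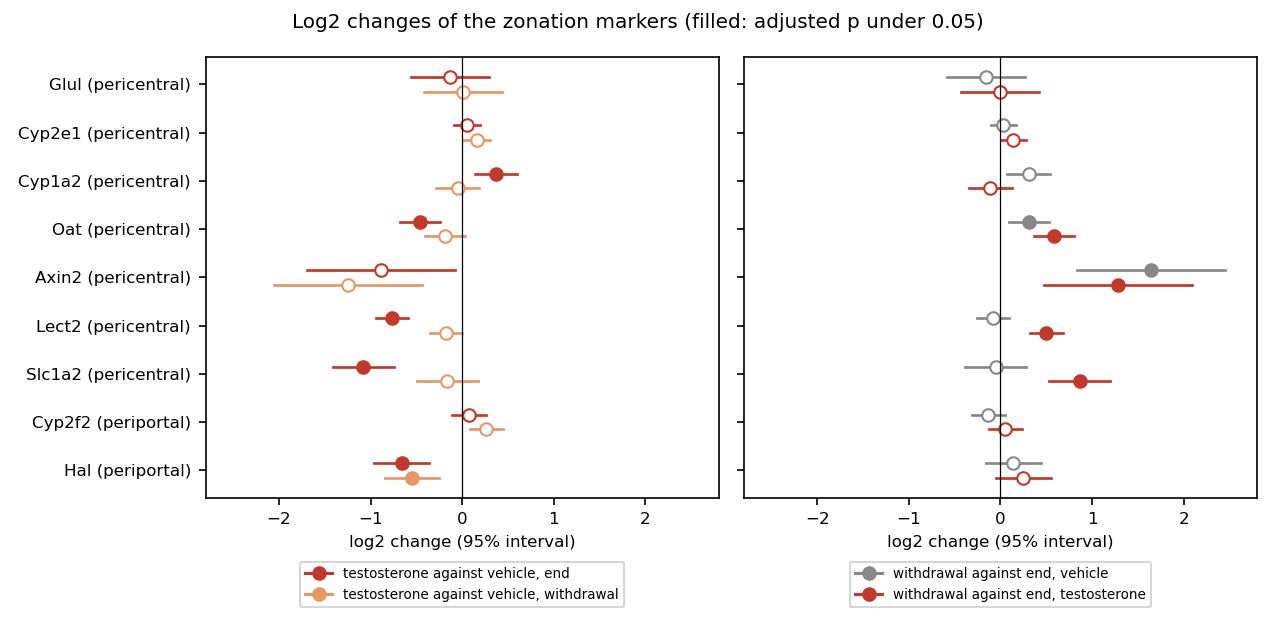
Log2 change (x axis) of the 9 markers with testosterone against vehicle at the end and after withdrawal (left) and between the times within each treatment (right), with 95% confidence intervals (lines) from the limma fit and filled points where the adjusted p is under 0.05. Slc1a2 moves from -1.08 at the end to -0.16 after withdrawal and Lect2 from -0.77 to -0.18, while Hal is at -0.66 and -0.55.

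A test of the difference between the 2 testosterone effects asked which markers changed in their response. Lect2 and Slc1a2 were called, both with a smaller decrease after withdrawal, while 2.19% of all genes were called (0.790% higher and 1.40% lower). The difference was 0.59 ± 0.12 on the log2 scale (SE; limma adjusted p = 0.0206) for Lect2 and 0.92 ± 0.22 (adjusted p = 0.0444) for Slc1a2. The Lect2 call was lost without vehicle mouse 1 (0.57) or testosterone mouse 2 (0.54) of the end, and without vehicle mouse 3 (0.55) or testosterone mouse 2 (0.57) of the withdrawal. The Slc1a2 call was kept without vehicle mouse 3 of the end or testosterone mouse 1 of the withdrawal, and lost without any other mouse: vehicle mouse 1 (0.82) or 2 (0.85) and testosterone mouse 1 (0.95), 2 (0.85) or 3 (0.95) of the end, and vehicle mouse 1 (0.80), 2 (0.98) or 3 (0.98) and testosterone mouse 2 (0.90) or 3 (0.85) of the withdrawal. Both calls were also lost with the actin ratio as a covariate, with no filter, with every probe set tested and with no variance trend, and that of Slc1a2 with the floor at the median or the mean of all probe sets.

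For Hal the difference between the times was 0.11 ± 0.20 (SE; 95% confidence interval -0.31 to 0.53; limma adjusted p = 0.787), and for Oat 0.27 ± 0.15 (95% confidence interval -0.04 to 0.58; adjusted p = 0.293). Cyp1a2 had a difference of -0.42 ± 0.15 (adjusted p = 0.135), which was called without vehicle mouse 3 of the end (-0.55, adjusted p = 0.0329). The intervals of Glul (-0.46 to 0.75) and Axin2 (-1.50 to 0.78) were wide.

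Comparisons of the withdrawal time with the end within each treatment use the same arrays as the comparisons above. Age, time since injection and any difference in handling between the times cannot be told apart in them. In vehicle mice 17.8% of all genes were called, 11.0% higher and 6.83% lower at the withdrawal time, and of the markers Axin2 and Oat were higher. Axin2 went from 11.1 to 26.6 at the end to 44.8 to 57.1 after withdrawal, with means of 17.4 ± 8.10 and 51.2 ± 6.16 (SD, n = 3 each). The log2 difference was 1.64 ± 0.38 (SE; limma adjusted p = 0.00957), with no fold given because 1 of the 3 vehicle arrays of the end was above the array median. Axin2 was above the median on all 3 vehicle arrays after withdrawal, and with testosterone on 0 arrays of the end and 2 after withdrawal. It thus passed the filter through arrays of the withdrawal time, where it was called higher. With that filter unchanged, it kept its call when any 1 of the 6 mice was left out (1.37 to 2.00). It missed the threshold with no filter (limma adjusted p = 0.0598), every probe set tested (0.0675) or the actin ratio as a covariate (1.29, adjusted p = 0.168).

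Oat was 1.24-fold higher in vehicle mice at the withdrawal time (log2 0.31 ± 0.10 SE; limma adjusted p = 0.04996). The call was lost without vehicle mouse 1 (0.25), 2 (0.33) or 3 (0.36) of the end or vehicle mouse 1 (0.29), 2 (0.27) or 3 (0.38) of the withdrawal. Cyp1a2 was not called (0.31 ± 0.11, adjusted p = 0.0626), but was called without vehicle mouse 3 of the end (0.44) or vehicle mouse 1 of the withdrawal (0.39). The groups did not overlap for 2 of the 9 markers, against 35.2% of all genes.

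In testosterone mice 10.9% of all genes were called, 5.57% higher and 5.31% lower after withdrawal, and 4 of the 7 pericentral markers were higher. Slc1a2 was 1.82-fold higher after withdrawal (log2 0.86 ± 0.16 SE; limma adjusted p = 0.00269), Oat 1.5-fold (0.58 ± 0.10; adjusted p = 0.00245) and Lect2 1.42-fold (0.50 ± 0.08; adjusted p = 0.00142). Axin2 was also called (1.29 ± 0.38; adjusted p = 0.0417), and its fold is left out because 1 of the dimmer mice was at the floor. Here too it had passed the filter through arrays of the withdrawal time. The Axin2 call was lost without testosterone mouse 1 (0.85) or 3 (1.40) of the end or testosterone mouse 1 (1.09) or 2 (1.25) of the withdrawal. It was also lost under most other settings, with a difference of 0.17 (adjusted p = 0.492) when the floor was at the median of all signals. Neither periportal marker was called, with Hal at 0.25 ± 0.14 (adjusted p = 0.279) and Cyp2f2 at 0.05 ± 0.09 (adjusted p = 0.741). Cyp2e1 (0.14 ± 0.06, adjusted p = 0.191) was called without testosterone mouse 1 of the withdrawal (0.20, adjusted p = 0.0499). The groups did not overlap for 6 of the 9 markers, against 31.0% of all genes, and with the actin ratio as a covariate 0 of the 7 pericentral markers were called.

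The level of each zone was summarised per mouse as the median over its markers of log2 signal after each marker was centred on its mean over the 12 arrays, as a description with no test. The pericentral level was 0.11 ± 0.17 (SD, n = 3) in vehicle mice and -0.44 ± 0.10 in testosterone mice at the end, and 0.16 ± 0.11 and 0.06 ± 0.03 after withdrawal. The 3 testosterone mice at the end had the lowest pericentral levels of the 12, from -0.53 to -0.33. The periportal level, which rests on 2 genes, was 0.11 ± 0.19, -0.18 ± 0.16, 0.11 ± 0.11 and -0.03 ± 0.11 in the same order. The pericentral minus the periportal level was between -0.45 and -0.10 in testosterone mice at the end, and between -0.14 and 0.19 in the other 9 mice, so these ranges overlapped.

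**Figure D3:**
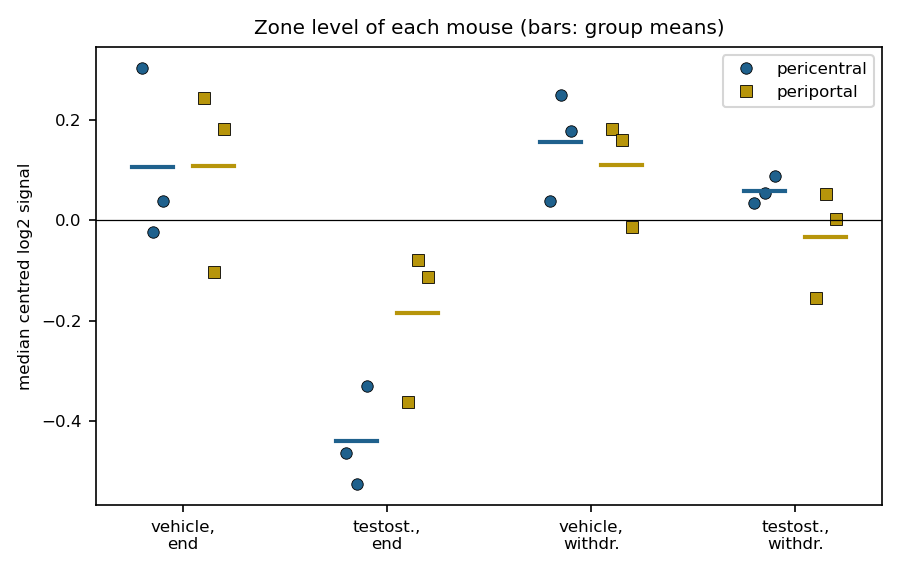
Pericentral and periportal level of every mouse (points; median of centred log2 signals, 7 and 2 genes) by group, with lines at the group means. The 3 testosterone mice at the end have pericentral levels of -0.53 to -0.33, below the other 9 mice.

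Across the 12 arrays the markers did not vary as 1 block. As a description over arrays that share the 4 groups, Pearson's r was 0.943 between Lect2 and Slc1a2, 0.774 between Oat and Lect2, 0.763 between Lect2 and Hal, and 0.761 between Oat and Axin2. A pericentral and a periportal marker, Lect2 and Hal, had nearly the same r as the pericentral pair Oat and Lect2. Cyp2e1 and Cyp2f2, the 2 bright P450 genes of opposite zones, had an r of 0.637.

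Other genes of each zone were followed in lists that left the markers out. Of 35 further pericentral genes 30 were tested. At the end testosterone livers were higher for 6 and lower for 8, against 9.42% and 8.01% of all genes, and the list's median log2 difference was -0.18. The largest changes were those of Csad, the decarboxylase of taurine synthesis, which was 4.76-fold higher (198 ± 60.8 to 917 ± 73.7 signal units, SD, n = 3 each), and of Cyp7a1, which sets the pace of bile acid synthesis and which was 2.89-fold lower (2074 ± 155 to 749 ± 275). Nr1i3, which encodes the nuclear receptor CAR, was 2.23-fold lower, and Rhbg, an ammonium transporter, was lower (32.3 ± 11.2 to 14.4 ± 2.61), at values below the array median in all 3 testosterone mice, so that no fold is given. Their limma adjusted p values were 5.79e-06, 0.000139, 0.000401 and 0.0133. The count of higher genes was 3 without vehicle mouse 1 or any 1 of the testosterone mice, and the count of lower genes was 5 without vehicle mouse 1 or testosterone mouse 1 or 2. With the actin ratio as a covariate 1 gene was higher and 0 were lower.

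Of 34 further periportal genes 28 were tested. At the end testosterone livers were higher for 1 and lower for 8, against 9.42% and 8.01% of all genes, and the list's median was -0.19. Cyp17a1, a steroid hydroxylase and lyase, was 9.38-fold lower, from 970 ± 32.9 to 104 ± 18.9 (SD, n = 3 each; limma adjusted p = 3.96e-09). Aldh1b1, a mitochondrial aldehyde dehydrogenase, was 2.20-fold lower (adjusted p = 0.00085), Ctsc, the protease cathepsin C, 2.15-fold lower (adjusted p = 2.76e-05), and Cdh1, E-cadherin, 1.72-fold higher (adjusted p = 0.0271). The count of lower genes was 7 or 8 when any 1 mouse was left out, and 2 with the actin ratio as a covariate. The 1 higher gene was lost without vehicle mouse 2 or testosterone mouse 1 or 2, and 2 genes were higher without vehicle mouse 3 or testosterone mouse 3. Beside the 8.01% of all genes that were lower, both zones held lower genes at the end, and the difference between the zones was not tested.

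After withdrawal 5 of the 30 pericentral genes were higher and 1 was lower, and 0 of the 28 periportal genes were higher and 4 lower. The shares of all genes in this comparison were 2.74% higher and 3.26% lower. Csad was still 2.48-fold higher (340 ± 120 to 812 ± 27.6 signal units, SD, n = 3 each; limma adjusted p = 0.00126), and Cyp17a1 3.84-fold lower (575 ± 124 to 148 ± 20.4; adjusted p = 1.12e-06). Cyp2c54 was 1.69-fold higher and Cyp2c37, a cytochrome P450 of the same subfamily, 1.33-fold lower, while Akr1c6, a hydroxysteroid dehydrogenase, was 1.28-fold higher (adjusted p = 0.0262, 0.00594 and 0.00894). Among the periportal genes Aldh1b1 was 1.76-fold lower, Ctsc 1.61-fold and Slc7a2, a transporter of basic amino acids, 1.59-fold (adjusted p = 0.0155, 0.00282 and 0.0188). The count of higher pericentral genes was 2 or 3 without vehicle mouse 2 (2) or 3 (3) or testosterone mouse 2 (3) or 3 (2), that of lower pericentral genes 2 without vehicle mouse 1 or testosterone mouse 3, and that of lower periportal genes 2 without vehicle mouse 2 or testosterone mouse 2 or 3. Without vehicle mouse 3 or testosterone mouse 1, 1 periportal gene was called higher. With the actin ratio as a covariate 2 pericentral genes were higher and 1 lower, and 2 periportal genes were lower, with 3.64% of all genes called.

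**Figure D4:**
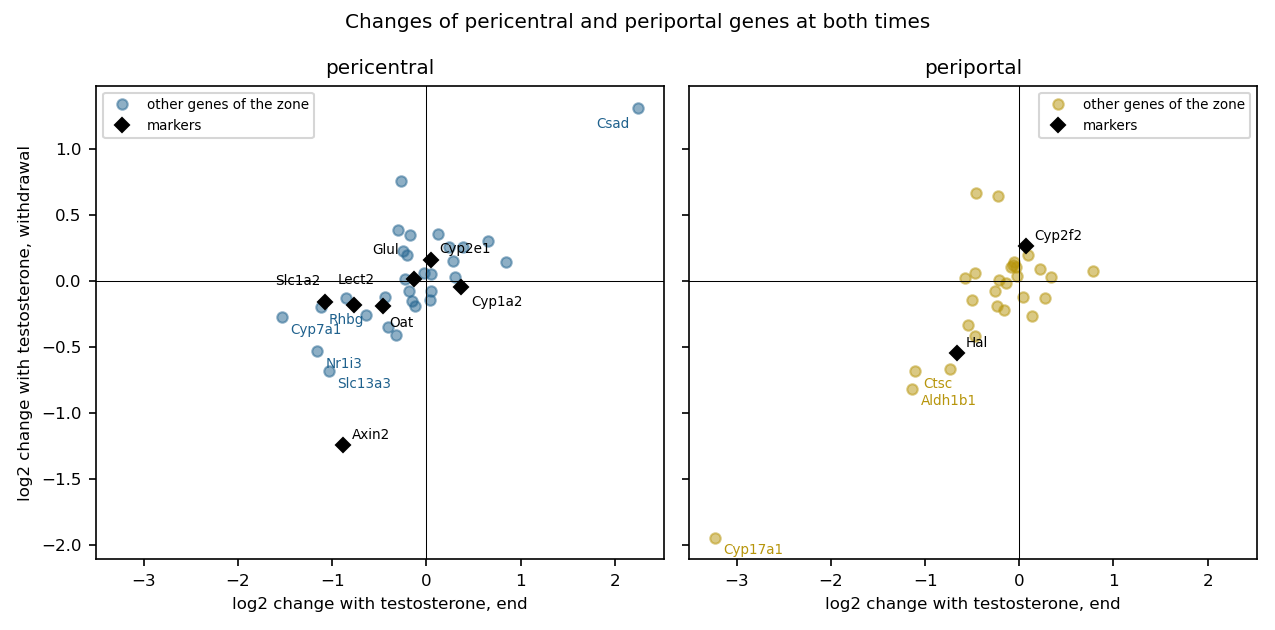
Log2 difference of testosterone against vehicle at the end (x axis) and after withdrawal (y axis) for tested pericentral genes (left) and periportal genes (right), with the markers as black diamonds; the 2 axes use different mice. Csad lies at 2.25 and 1.31 and Cyp17a1 at -3.23 and -1.94, while Slc1a2, Lect2 and Oat lie near the horizontal line.

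In the test of the difference between the times, Cyp7a1 was called among the further pericentral genes (1.26 ± 0.28, limma adjusted p = 0.0362), and Cyp17a1 (1.29 ± 0.22, adjusted p = 0.0116) and Igf1 (0.53 ± 0.11, adjusted p = 0.0268) among the periportal ones. These were 1 of 30 and 2 of 28 genes, beside the 0.790% of all genes called higher. The counts moved between 0 and 5 for the pericentral and between 1 and 3 for the periportal genes with 1 mouse left out. Those that lowered the first to 0 were vehicle mouse 1 or 2 and testosterone mouse 2 of the end, and vehicle mouse 3 and testosterone mouse 2 or 3 of the withdrawal. It was 2 without vehicle mouse 3 of the end, 4 without vehicle mouse 1 of the withdrawal and 5 without testosterone mouse 1 of the withdrawal. The second count was 1 without vehicle mouse 2 or testosterone mouse 1 or 2 of the end, or vehicle mouse 2 or 3 or testosterone mouse 2 or 3 of the withdrawal, and 3 without testosterone mouse 1 of the withdrawal. With the actin ratio as a covariate both counts were 0, and 0.0139% of all genes were called.

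Between the times, 8 of 30 further pericentral genes were higher at the withdrawal time, 2 lower and 20 not called in vehicle mice, against 11.0% of all genes higher and 6.83% lower. In testosterone mice 11 were higher, 0 lower and 19 not called, against 5.57% and 5.31%. With the actin ratio as a covariate 2 were higher and 0 lower in vehicle mice (3.21% of all genes called), and 1 was higher and 0 lower in testosterone mice (1.52% of all genes called). Tbx3, a transcription factor of pericentral hepatocytes, was 2.54-fold higher in vehicle mice (36.6 ± 6.71 to 93.6 ± 22.9 signal units, SD, n = 3 each; limma adjusted p = 0.00149) and 3.17-fold higher in testosterone mice (27.4 ± 8.31 to 85.5 ± 16; adjusted p = 0.000341). Lgr5, a receptor that strengthens Wnt signalling, was 2.04-fold higher in vehicle mice (adjusted p = 0.00215) and 1.80-fold higher in testosterone mice (adjusted p = 0.00918). In testosterone mice Avpr1a, a vasopressin receptor, was 2.60-fold and Ahr, the aryl hydrocarbon receptor, 1.92-fold higher (adjusted p = 0.000106 and 0.000364), and Rhbg was higher (adjusted p = 0.0146). The vehicle count of higher genes was 5 without vehicle mouse 2 of the end or vehicle mouse 2 or 3 of the withdrawal, and that of lower genes 1 without vehicle mouse 1 or 2 of the end or vehicle mouse 3 of the withdrawal. In the vehicle comparison 0 of 13 Kupffer cell markers were higher and 10 lower, 0 of 10 tested endothelial markers were higher and 3 lower, and 2 of 7 stellate cell and 2 of 6 hepatocyte markers were higher and none lower; their part was not tested.

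Of the further periportal genes, 2 of 28 were higher and 2 lower in vehicle mice at the withdrawal time, against 11.0% and 6.83% of all genes, and 6 were higher and 0 lower in testosterone mice, against 5.57% and 5.31%. The fit with the actin ratio had 1 higher and 2 lower in vehicle mice, and none was called in testosterone mice. Gldc, a subunit of the glycine cleavage system, was higher in both, 1.95-fold (limma adjusted p = 0.000688) and 1.47-fold (adjusted p = 0.0238). G6pc, glucose-6-phosphatase, was 2.36-fold higher in testosterone mice (adjusted p = 0.0179). In vehicle mice Sult5a1 was 2.13-fold lower (adjusted p = 0.00288) and Cyp17a1 1.71-fold lower (adjusted p = 0.00424). The vehicle count of higher genes was 1 without vehicle mouse 1 or 2 of the end or vehicle mouse 2 or 3 of the withdrawal. The testosterone count of higher genes was 3 without testosterone mouse 1 or 2 of the end or testosterone mouse 2 of the withdrawal, and 1 without testosterone mouse 3 of the withdrawal, while 1 gene was lower without testosterone mouse 1 of the withdrawal.

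Wnt and β-catenin signalling, the pathway of the pericentral programme, was followed through 40 ligands, receptors, pathway members and targets, of which 23 were tested. At the end 2 were higher, 1 was lower and 20 were not called, beside 9.42% of all genes higher and 8.01% lower. Myc, a growth-promoting transcription factor, was higher (15.8 ± 7.61 to 75.3 ± 16.5 signal units, SD, n = 3 each; limma adjusted p = 0.000133). It was above the array median on all 3 testosterone arrays of the end and on 1 of the other 9, so it passed the filter through the group where it was high and no fold is given. Tcf7l1, a TCF/LEF factor, was also higher (adjusted p = 0.0335), with 2 testosterone arrays at each time and 0 vehicle arrays above the median. It passed the filter through testosterone arrays alone. Both genes counted as higher were thus kept through arrays of the treatment where they were high. Ccnd1, cyclin D1, was 2.74-fold lower (436 ± 67.6 to 160.5 ± 37.5; adjusted p = 0.00164). The count of higher genes was 1 without vehicle mouse 1 or testosterone mouse 2 or 3, and it was 5 after centring each array on its median. The fit with the actin ratio called 1 gene higher and 1 lower. The median difference of the list was 0.09, near the 0.04 of all genes.

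After withdrawal 0 Wnt genes were higher and 2 were lower, beside 2.74% and 3.26% of all genes. The lower ones were the receptor Fzd4 (1.44-fold, limma adjusted p = 0.0218) and the kinase Csnk1a1 (1.33-fold, adjusted p = 0.0127). The count of lower genes was 0 without vehicle mouse 2 or 3 or testosterone mouse 2 or 3, and 4 without testosterone mouse 1. In vehicle mice 7 of 23 were higher and 2 lower at the withdrawal time, beside 11.0% and 6.83% of all genes. Among the higher ones was Fzd7 (2.16-fold, adjusted p = 0.000735), together with Tbx3 and Lgr5, which stand in this list too. The count of lower genes there was 0 without vehicle mouse 1 or 3 of the end or vehicle mouse 1 or 3 of the withdrawal, and 1 without vehicle mouse 2 of the withdrawal. In testosterone mice 2 were higher and 3 lower, beside 5.57% and 5.31% of all genes. Myc was lower after withdrawal (75.3 ± 16.5 to 11.0 ± 2.12, adjusted p = 4.61e-05) at values below the array median in all 3 mice. The receptor Fzd6, also lower, was above the median on all 3 testosterone arrays of the end and on 0 after withdrawal. Both genes thus passed the filter through the group where they were high. The difference between the times was called for 0 genes as higher and 2 as lower, beside 0.790% and 1.40% of all genes. The 2 lower ones were Myc (-2.70 ± 0.43, adjusted p = 0.0088) and Dvl1 (-0.80 ± 0.18, adjusted p = 0.0379). That count was 1 without vehicle mouse 1 or any 1 testosterone mouse of the end, and without vehicle mouse 2 or 3 or testosterone mouse 2 or 3 of the withdrawal, and 4 without testosterone mouse 1 of the withdrawal. In the fit with the actin ratio no Wnt gene was called after withdrawal or for the difference, 3 were higher and 1 lower in vehicle mice over time, and 0 were higher and 1 lower in testosterone mice.

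Genes of ammonia, glutamine and urea metabolism, the context of Glul, Oat and Slc1a2, were lower at the end in 9 of 18 tested, the markers left out, and higher in 0, with a median of -0.27. Beside them, 8.01% of all genes were lower and 9.42% higher, and the median of all genes was 0.04. Got1, cytosolic aspartate aminotransferase, was 2.21-fold lower (1642 ± 105 to 757 ± 192 signal units, SD, n = 3 each; limma adjusted p = 0.000345). Slc7a2 was 1.66-fold lower (adjusted p = 0.0061) and Gpt, alanine aminotransferase, 1.65-fold lower (adjusted p = 0.000556), beside Rhbg, given above. Slc7a2, with another lower gene of this list, stands among the lower genes of the periportal list too, and Rhbg among those of the pericentral list. The count of lower genes was 8 or 9 when any 1 mouse was left out. It was 0 with the actin ratio as a covariate, where 1.08% of all genes were called. After withdrawal 2 of the 18 were lower, Slc7a2 and Gpt (1.41-fold, adjusted p = 0.0143), beside 3.26% of all genes. That count was 0 without vehicle mouse 2, and 1 without vehicle mouse 3 or testosterone mouse 2 or 3. In testosterone mice Got1 was 1.62-fold higher after withdrawal than at the end (adjusted p = 0.0149). It was 1 of 4 genes of the list that were higher, with 1 lower, beside 5.57% and 5.31% of all genes. The count of higher genes was 1 without testosterone mouse 1 of the end and 0 without testosterone mouse 2 of the withdrawal, and the count of lower genes 0 without testosterone mouse 3 of the end. In vehicle mice 1 gene was higher and 2 were lower (1 without vehicle mouse 2 or 3 of the withdrawal), beside 11.0% and 6.83% of all genes. In the fit with the actin ratio 1 gene was lower after withdrawal, none was called in testosterone mice over time, and 1 was higher and 1 lower in vehicle mice.

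Genes of histidine, serine and threonine breakdown, the context of Hal, were lower at the end in 2 of 10 tested without the markers, and higher in 0. Beside them, 8.01% of all genes were lower and 9.42% higher. The median difference of the list was -0.05, near the 0.04 of all genes. Agxt, an aminotransferase of glyoxylate and serine, was 1.46-fold lower (1349 ± 127 to 929 ± 163 signal units, SD, n = 3 each; limma adjusted p = 0.00526), and Shmt1, a serine hydroxymethyltransferase, 1.40-fold lower (adjusted p = 0.00151). Agxt stands among the lower genes of the periportal list too. Both calls held when any 1 mouse was left out, and neither was kept with the actin ratio as a covariate. After withdrawal 0 of the 10 were called, beside 6.00% of all genes, and 1 was higher without testosterone mouse 1. Uroc1, which encodes urocanase, the enzyme after Hal in histidine breakdown, was not called for testosterone at the end (log2 0.33, adjusted p = 0.112) or after withdrawal (0.03, adjusted p = 0.93), and was 1.39-fold higher in vehicle mice at the withdrawal time (adjusted p = 0.0295).

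The genes whose signals followed those of a marker most closely over the 12 arrays were taken for the 4 called markers with the widest range of group means. For Axin2 they were Ccdc71 (Pearson's r = 0.962), Spag7 (0.930) and Zbtb7b (0.919). For Slc1a2 they were Lpp (0.968), Ggcx (0.958) and Bsg (0.956). For Hal they were Antkmt (0.944), Tm6sf2 (0.939) and Ebpl (0.936), and for Oat Gdap2 (0.941), Tm7sf2 (0.932) and Ctsl (0.931). None of the 12 stands in the lists of zone or pathway genes used here. These values are descriptions over arrays that share groups, chosen as the highest of 7217 genes.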

How the data were processed

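The liver RNA of each of 12 mice was measured on 1 array, and the deposited values are linear intensities per probe set, made by the authors with GCOS and MAS5 per the submitters' processing notes, with versions not given in the sources used here. They were scaled to a trimmed mean of 100.05 on every array, found from the values; the genome build is not given in the sources used here. Of 22690 probe sets, 64 controls were left out, and 20380 had 1 gene symbol in the platform annotation, 691 several and 1555 none. Signals below 4.84, the 25th percentile of all signals, were raised to it, and log2 was taken. Each gene was read from its brightest probe set and kept if above the array median on at least 3 of 12 arrays (7217 genes).

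The 4 group means were fitted with limma 3.58.1 in R 4.3.3 (lmFit, then eBayes with trend), and Benjamini-Hochberg adjustment ran over all genes of a contrast; the script was tested on simulated data. A single-gene permutation test of 3 against 3 mice cannot go below p = 0.1, so the fit over all genes was used. Each replicate is 1 mouse by the design text. The number of arrays limits the precision. Array correlations, not depth, describe reliability here.

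All 10 markers are named, and from other lists up to 4 called genes with the largest changes per comparison. The members and lists were chosen with earlier results of these data known. Promoter sequences come from RefSeq (GRCm38.p6), in which all 9 measured markers had an entry. The alternatives were other floors, filters, probe set rules and scalings, the actin ratio, the replicate number as a block, and leaving out each mouse; the motif search and the counts of lists under each alternative were added after seeing the data.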

Additional observations from a re-analysis of the deposited data

Results flagged for a closer look

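The testosterone effect differed between the end and the withdrawal time for Lect2 and Slc1a2 by a test of the difference itself. The log2 difference between the 2 effects was 0.59 for Lect2 (limma adjusted p = 0.0206), from -0.77 at the end to -0.18 after withdrawal, and every testosterone mouse lay below every vehicle mouse at both times. For Slc1a2 it was 0.92 (limma adjusted p = 0.0444), from -1.08 to -0.16, with groups that overlapped after withdrawal. Both effects share no mice, since different animals were taken at the 2 times. Neither call held with the actin 3′/5′ ratio as a covariate, with no filter on low signals, with every probe set tested or with no variance trend. With 1 mouse left out the Lect2 call held in 8 of 12 fits (0.53 to 0.65) and that of Slc1a2 in 2 of 12 (0.80 to 1.09).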

How the results depend on the processing

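At the end, the count of pericentral markers lower with testosterone stayed at 3 except with no filter or every probe set tested (2 each, Oat lost) and with the actin ratio as a covariate (1), which also took the periportal count from 1 to 0. The 1 higher pericentral marker (Cyp1a2) was not called (0) with no filter, with every probe set tested, with the actin ratio, with no variance trend, or with the compared groups alone. After withdrawal the lower pericentral count went from 0 to 1 (Axin2) with log2(signal + 16), with the floor at the median or with the compared groups alone. The lower periportal count there (Hal) went from 1 to 0 with no filter, every probe set, median centring, the replicate block or no variance trend. For the difference between the times the higher pericentral count of 2 became 1 with the floor at the median or the mean of all probe sets, and 0 with no filter, every probe set, the actin ratio, the replicate block or no variance trend; 1 was lower with the floor at the median. In vehicle mice over time the count of 2 became 1 with the floor at the median, the filter on all 12 arrays, the mean of probe sets, median centring, the replicate block or no variance trend, and 0 with no filter, every probe set or the actin ratio. In testosterone mice the count of 4 became 0 with the actin ratio and was 3 or 4 under the others. The cause of these moves was not tested, and the actin ratio cannot be told apart from the testosterone treatment at the end.

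With 1 mouse left out, the counts of pericentral markers ranged from 0 to 1 (end, higher), 0 to 1 (withdrawal, higher), 0 to 2 and 0 to 1 (difference, higher and lower), 1 to 2 (vehicle over time) and 3 to 4 (testosterone over time); periportal counts after withdrawal ranged from 0 to 1 in both directions.

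Values that changed sign belonged to markers that were not called. After withdrawal Glul was at -0.028 with the mean of probe sets and -0.026 with quantile normalization, and Cyp1a2 at 0.037 with median centring. For the difference between the times Cyp2e1 was at -0.041 with quantile normalization, and with the actin ratio Cyp2e1 was at -0.12, Axin2 at 0.63, Cyp2f2 at -0.29 and Hal at -0.23. In vehicle mice over time Cyp2e1 was at -0.070 with median centring and Cyp2f2 at 0.040 with the actin ratio. In testosterone mice Glul was at 0.14 with the mean of probe sets and 0.086 with the actin ratio, Cyp2e1 at -0.011 with quantile normalization and -0.0081 with the actin ratio, and Cyp2f2 at -0.054 and -0.25. The mean pericentral minus periportal level of vehicle mice at the end was 0.016 with quantile normalization. With 1 mouse left out, Glul ranged from -0.32 to 0.017 (end), -0.20 to 0.16 (withdrawal), -0.071 to 0.33 (difference), -0.34 to 0.061 (vehicle) and -0.16 to 0.14 (testosterone). Cyp1a2 ranged from -0.13 to 0.033 (withdrawal), Hal from -0.034 to 0.27 (difference) and -0.018 to 0.25 (vehicle), Cyp2e1 from -0.0075 to 0.062 and Slc1a2 from -0.22 to 0.068 (vehicle), and Cyp2f2 from -0.0092 to 0.14 (testosterone). Median centring moved the median of all genes in the vehicle comparison from 0.06 to -0.04.

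Groups share replicate numbers, but these did not pair the mice: in 0 of 18 same-numbered pairs did deviations from the group means correlate above 0.1 (-0.19 to 0.0056), and 0 of 12 arrays correlated best with their own number. With the number as a block, 14.2% of all genes were called at the end and 4.92% after withdrawal, Hal after withdrawal had a limma adjusted p of 0.0578, and the differences of Lect2 and Slc1a2 had 0.0548 and 0.0796.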
